A study of Mus musculus with 10 samples.

Results

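The collagen genes are the family whose mouse symbols read Col, a type number, the letter a and a chain number. They were found by that pattern after each counted transcript segment had been given its gene, and 44 of the 21098 genes in the count table carry such a symbol. The data are bulk poly(A) RNA sequencing of the gastrocnemius (GAS), the fast calf muscle, of 10 wild-type (WT) male C57BL/6J mice with diet-induced obesity. All of them received the high-fat diet D12492i from 9 weeks of age. After 9 weeks they were injected subcutaneously once a week for 14 weeks and stayed on that diet. The age at tissue collection is stated as 30 weeks, which is less than these intervals add up to. The study states that treatment began once all mice weighed over 40 g. Its listed weights on the first day include CTRL mice below 40 g, and the ASO mice were heavier on average. The 5 CTRL mice received saline (0.9%) and the 5 ASO mice received 10 mg/kg of the anti-miR-22 antisense oligonucleotide labelled RES-010, an unconjugated LNA mixmer. No lean, untreated or control-oligonucleotide group entered the comparison, so both groups carry the obesity and the diet.

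Collagens are triple helices of 3 chains that are wound in the endoplasmic reticulum, secreted and assembled outside the cell. Fibrillar collagens form the load-bearing fibrils of the sheaths around muscle fibers and of the tendon, type IV chains form the mesh of the basement membrane that wraps each muscle fiber and capillary, and type VI chains form beaded filaments that link that membrane to the interstitial matrix. In resting muscle much of the fibrillar collagen message is made by interstitial fibro-adipogenic progenitors, while endothelial cells and muscle fibers contribute to basement membrane chains. Micro-RNAs such as miR-22 lower messages that hold a match to their seed, so the collagen messages were also read for such matches.

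The sequences below are shown because the seed decides which collagen messages could be direct targets. The mature miR-22-3p (RefSeq, GRCm38.p6, chr11:75463772-75463793, plus strand) has its seed, bases 2 to 8, in capitals, and the stretches of collagen 3′UTR (GRCm39, GENCODE M39) have the match GGCAGCT in capitals.
mmu-miR-22-3p: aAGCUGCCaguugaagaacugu
Col4a2, chr8:11498324-11498353, plus strand: gccctgcccacGGCAGCTgtgtgggaaggc
Col4a2, chr8:11499051-11499080, plus strand: aagaccctgacGGCAGCTggcacacagctc
Col4a4, chr1:82426341-82426370, minus strand: taaatctccgtGGCAGCTtccaagaccatt
Col5a1, chr2:27927625-27927654, plus strand: tgggggcagcgGGCAGCTgggacaagtcac
On the sense strand of the longest annotated 3′UTR, 6 of the 44 collagen genes (13.6%) held a match, against 3510 of 21540 protein-coding genes (16.3%). The other collagen genes with a match, Col19a1, Col23a1 and Col26a1, had 1 each. The second Col4a2 match and the Col4a4 match lie inside the stretch in which reads were counted. A match is a run of letters and was not tested as a binding site.

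The study restricted its read counts to the last 500 bp of transcripts, so each value below stands for the 3′ end of a message and not for the whole gene. Per library 1606909 to 2116720 reads were counted in CTRL and 2239186 to 2632560 with the ASO, of which collagen genes took 2334 to 5281 in CTRL and 1314 to 4641 with the ASO. Levels are given as CPM, the counts scaled between libraries by TMM and to a common total of 1000000. Skeletal muscle fiber markers, at a summed 40708 to 79949 CPM in CTRL and 84905 to 130450 CPM with the ASO, were the most abundant marker list, although Mylpf and Tnnt3 of that list were listed at 0. In every ASO library the counts also lay closer to the ends of messages: with counts on the most distal segment set against counts at least 1000 bp upstream in 1261 genes, the median log2 ratio was 1.18 to 1.77 with the ASO and −0.59 to 0.43 in CTRL. This shift and the greater depth separate the groups as completely as the treatment does, and their part in the results was not tested except where a value is given. With every library drawn down to the depth of the smallest, Col4a1 and Col6a6 were again the 2 collagen genes called, both lower. Of all 7383 genes tested in that fit, 1275 were lower and 874 higher.

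Of the 44 collagen genes, 16 passed edgeR's filter on low counts and were tested, 20 were counted but fell below the filter, 2 (Col9a3 and Col6a4) had bases of their own and drew no read, and 6 (Col2a1, Col7a1, Col9a1, Col13a1, Col17a1 and Col26a1) could not be counted because every base of their segments is shared with another segment. For these last 6, and for Col9a3 with only 4 bases of its own, a count of 0 does not show that the gene is silent. At an adjusted p of 0.05, 2 of the 16 tested collagen genes were lower with the ASO, the basement membrane chain Col4a1 and the type VI chain Col6a6, and 0 were higher. That is 12.5% lower, where 17.4% of all 7813 tested genes were lower, 11.8% were higher and 29.2% were called in either direction. Col6a3 and Col3a1 were short of that threshold, at unadjusted edgeR p of 0.0159 and 0.0382. No share of all genes at such an unadjusted p is given beside these. DESeq2, which tests more low genes, called 4 collagen genes lower and 1 higher, beside 1478 lower and 1111 higher of 14134 genes. The fold change was negative in 15 of the 16 tested genes and their median log2 fold change was −0.39, against −0.03 over all genes tested, of which 51.7% were negative. With 1 library left out the collagen median ranged from −0.99, without ASO mouse 4, to −0.21, without CTRL mouse 3. The 2 groups of 5 libraries overlapped for each of the 16, while they did not overlap for 21.4% of all tested genes.

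**Figure D1:**
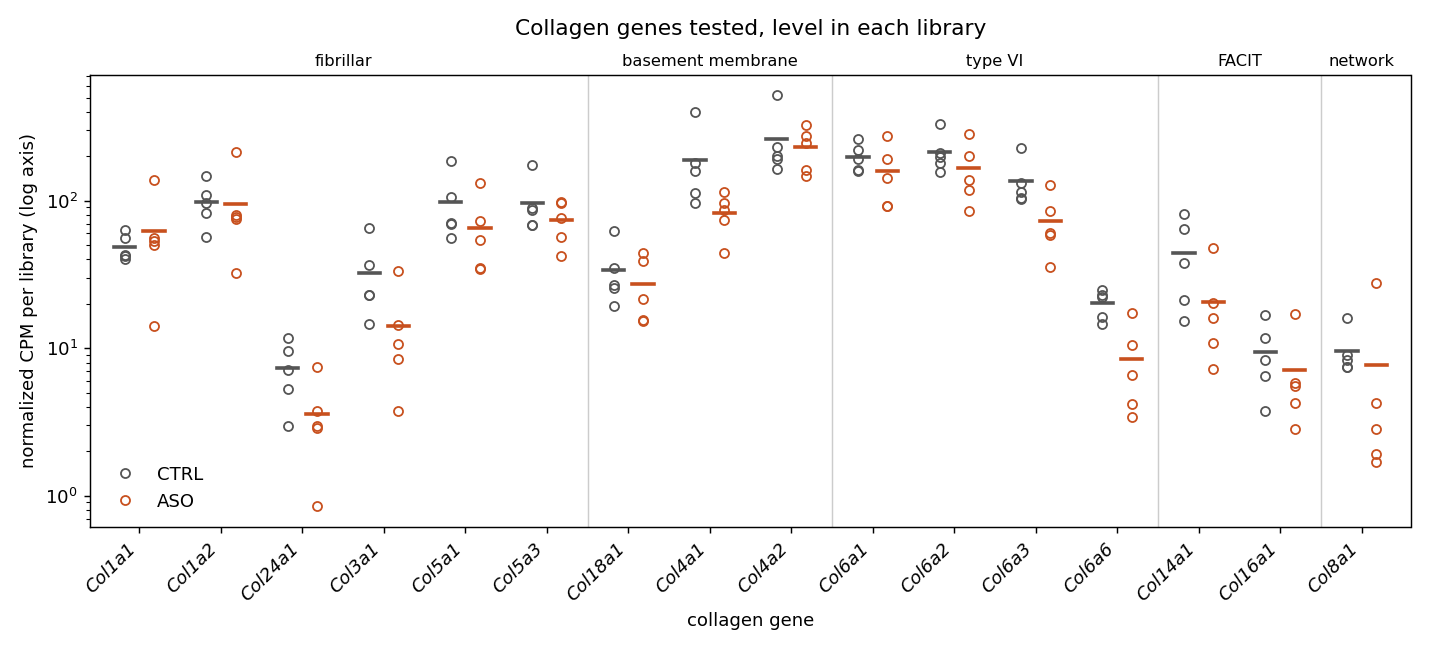
Normalized CPM (log axis) of the 16 tested collagen genes in each of the 5 CTRL and 5 ASO libraries, as open circles grouped by collagen class, with a bar at each group's mean. The groups overlap for every gene, and the highest circle of a group is often the same library.

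**Figure D2:**
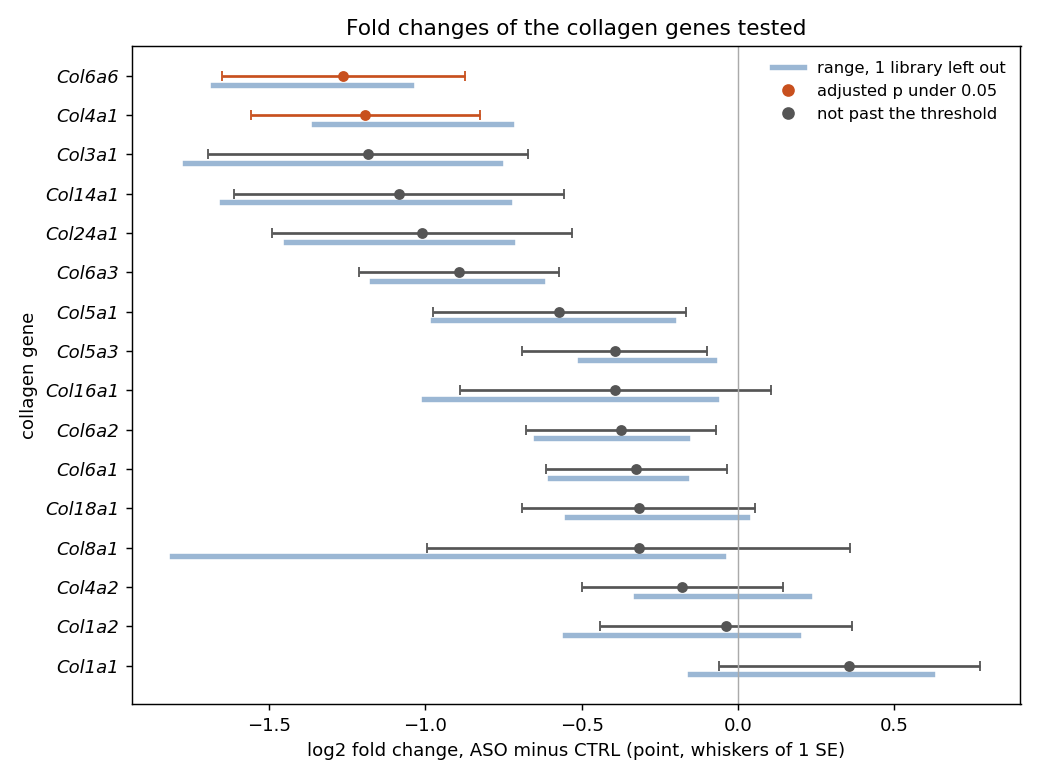
Log2 fold change of each tested collagen gene, ASO minus CTRL, with whiskers of 1 SE, and below it a bar from the lowest to the highest value obtained when 1 library was left out. Of the 16 points 15 lie below 0, the 2 past the threshold are coloured, and the widest bar is that of Col8a1.

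Fibrillar collagens had 11 members in the table, of which 6 were tested, none passed the threshold and the median log2 fold change was −0.48. Col1a1 and Col1a2 encode the chains of type I collagen, the main fibril protein of muscle connective tissue. Col1a1 (counted at chr11:94843369-94843868, plus strand, its 3′UTR) was at 40.1, 42.0, 63.7, 55.5 and 42.7 CPM in CTRL mice 1 to 5 and at 49.7, 53.1, 56.2, 138 and 14.1 CPM in ASO mice 1 to 5. ASO mouse 4 was the highest of all 10 and ASO mouse 5 the lowest, with the other 3 treated mice inside the CTRL range (log2 fold change 0.36, SE 0.42, edgeR adjusted p = 0.550). Without ASO mouse 4 the sign turned and the log2 fold change was −0.15.

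Col1a2 was at 56.6, 82.1, 148, 109 and 96.1 CPM in CTRL mice 1 to 5 and at 77.3, 75.2, 79.5, 213 and 32.5 CPM in ASO mice 1 to 5. Again the treated mice spanned more than the controls, with ASO mouse 4 above and ASO mouse 5 below all CTRL mice (log2 fold change −0.04, SE 0.40, edgeR adjusted p = 0.953). The sign of this value near 0 depends on the scaling between libraries and on single mice.

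Col3a1, whose type III homotrimers are mixed into type I fibrils and are typical of young or loosely packed matrix, had the most negative fibrillar value. It was at 14.6, 22.8, 65.2, 36.6 and 23.0 CPM in CTRL mice 1 to 5 and at 10.6, 14.4, 8.46, 33.4 and 3.77 CPM in ASO mice 1 to 5. In 4 of 5 treated mice it lay below every CTRL mouse, and the groups overlapped through ASO mouse 4 (log2 fold change −1.18, SE 0.51, edgeR adjusted p = 0.0991). Without ASO mouse 4 the log2 fold change was −1.77 and passed the threshold (edgeR adjusted p = 0.0156), and without CTRL mouse 3 it was −0.76 and did not.

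Type V chains sit in the core of fibrils and limit their width. Col5a1, the type V chain with a seed match, was at 56.1, 69.9, 185, 106 and 70.8 CPM in CTRL mice 1 to 5 and at 73.4, 34.8, 54.1, 131 and 34.4 CPM in ASO mice 1 to 5 (log2 fold change −0.57, SE 0.40, edgeR adjusted p = 0.310). The match lies outside its counted segments, of which the distal one gave a log2 fold change of −0.17 and the one 2085 bp upstream, with 68.3% of the counts, gave −0.70. Col5a3 was at 68.9, 68.1, 174, 89.1 and 85.9 CPM in CTRL mice 1 to 5 and at 98.0, 56.5, 76.6, 96.9 and 42.0 CPM in ASO mice 1 to 5, with CTRL mouse 3 alone above the treated range (log2 fold change −0.39, SE 0.30, edgeR adjusted p = 0.340). Col5a2 averaged 9.80 counts per library, ranged from 2.80 to 10.6 CPM in CTRL and from 0.943 to 9.60 CPM with the ASO, and was not tested.

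Col24a1, a minor fibrillar chain, was at 7.07, 11.7, 2.96, 5.31 and 9.55 CPM in CTRL mice 1 to 5 and at 2.90, 2.97, 0.846, 7.51 and 3.77 CPM in ASO mice 1 to 5. All but 1 treated mouse lay in the lower part of the CTRL range or below it (log2 fold change −1.01, SE 0.48, edgeR adjusted p = 0.132).

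Col11a2, a chain of the minor type XI fibrils best known from cartilage, moved the other way and fell just below the count filter. It was at 2.36, 2.80, 1.98, 1.77 and 3.93 CPM in CTRL mice 1 to 5 and at 8.21, 4.67, 4.65, 10.0 and 11.8 CPM in ASO mice 1 to 5, from 3 to 7 counts per CTRL library and 11 to 25 per ASO library. Every treated mouse was above every CTRL mouse. With no filter on low counts its log2 fold change was 1.63 (edgeR adjusted p = 0.0117), while it passed the filter in each fit that left out a CTRL library and in none that left out an ASO library. It met the filter there through the group in which it is high, so its calls in those fits add nothing to this value. Col27a1, at 0.472 to 3.95 CPM in CTRL and 3.82 to 5.31 CPM with the ASO, and Col11a1, with 0 to 4 and 0 to 6 counts, were too low to test.

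Basement membrane collagens had 8 members, 3 tested and 1 lower. Col4a1 and Col4a2 encode the 2 chains of the commonest type IV helix and are transcribed in opposite directions from starts 355 bp apart on chromosome 8. Col4a1 was at 114, 97.0, 399.7, 159 and 180.3 CPM in CTRL mice 1 to 5 and at 97.1, 73.9, 86.3, 114 and 44.3 CPM in ASO mice 1 to 5. Treated mice held the 3 lowest values, CTRL mouse 3 stood far above the rest, and the groups overlapped only between 97.0 and 114 CPM. The means were 190.0 ± 122 CPM in the 5 CTRL mice and 83.1 ± 26.2 CPM in the 5 ASO mice (± SD), and the fall passed the threshold (log2 fold change −1.19, SE 0.37, edgeR adjusted p = 0.0278).

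Where Col4a1 was counted matters for this value. Its most distal segment has only 8 bases that no other segment shares and drew no read, and the next one, 8 bp upstream and also with 8 such bases, drew 3.22% of the counts. Most of them, 87.2%, lie on 184 bp of 3′UTR at chr8:11249519-11249702 (minus strand), 1096 bp upstream of the end. A further 9.59% lie at chr8:11268035-11268534, a stretch 19612 bp upstream of which 18 bp are annotated as Col4a1 exon. Fitted one at a time, the log2 fold change was −1.39 on the segment 8 bp upstream of the end, −0.97 on the main one and −3.44 on the stretch with little exon (edgeR adjusted p = 0.0214, 0.0380 and 0.0024). The first of these held only 8 to 22 counts per CTRL library and 3 to 12 per ASO library. Without CTRL mouse 3 the log2 fold change was −0.73 (edgeR adjusted p = 0.0545), and the call was also lost without ASO mouse 2, 3 or 5, at adjusted p of 0.0576, 0.0608 and 0.0711.

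Col4a2 did not follow its partner. It was counted on 1 segment at the very end of the message (chr8:11498788-11499287, plus strand), with one of its seed matches inside it, and was at 200.0, 192, 518, 230.1 and 165 CPM in CTRL mice 1 to 5 and at 275, 147, 245, 325 and 163 CPM in ASO mice 1 to 5. CTRL mouse 3 was the highest of all, and of the treated mice 3 lay above and 2 below the other 4 controls (log2 fold change −0.18, SE 0.32, edgeR adjusted p = 0.704), and without CTRL mouse 3 the sign turned, at 0.23. Taken within each library, the log2 ratio of Col4a2 to Col4a1 counts was 0.81, 0.98, 0.37, 0.53 and −0.13 in CTRL mice 1 to 5 and 1.50, 0.99, 1.50, 1.51 and 1.87 in ASO mice 1 to 5. Each treated mouse was above each CTRL mouse, by a narrow margin between ASO mouse 2 and CTRL mouse 2, and the mean difference was 0.96 (two-sided exact permutation p = 0.00794, the smallest that 5 against 5 allows, adjusted over 5 ratios 0.0198). With Col4a1 counted on its main segment alone the difference was 0.80 (exact permutation p = 0.0159, adjusted 0.0397). This ratio sets an end segment against one 1096 bp upstream, and the shift of counts toward message ends in the ASO libraries runs in the same direction.

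Col18a1, whose C-terminal fragment is endostatin, was at 19.3, 25.6, 62.8, 34.8 and 27.0 CPM in CTRL mice 1 to 5 and at 44.4, 15.3, 21.6, 39.2 and 15.6 CPM in ASO mice 1 to 5 (log2 fold change −0.32, SE 0.37, edgeR adjusted p = 0.550). Its main segment lies wholly over exons of Slc19a1 on the opposite strand, and no strand option is named for the counting, so its reads cannot be told apart from those of that gene. Its sign turned without CTRL mouse 3, at 0.030. Col15a1, the other multiplexin of the muscle basement membrane, had 1 to 7 counts in CTRL and 0 to 4 with the ASO.

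The type IV chains of specialised basement membranes, Col4a3 to Col4a6, were all below the filter. Col4a4, which holds a seed match in its counted segment, was at 2.36, 5.60, 4.45, 4.13 and 4.49 CPM in CTRL mice 1 to 5 and at 1.93, 1.27, 0, 0.835 and 2.36 CPM in ASO mice 1 to 5, and every treated mouse was below every CTRL mouse, though ASO mouse 5 and CTRL mouse 1 differ only past the digits given. Its log2 fold change with no filter was −1.65 (edgeR adjusted p = 0.0761), from 5 to 12 counts per CTRL library and 0 to 5 per ASO library. Col4a5 had 0 to 8 counts in CTRL and 0 to 2 with the ASO, Col4a3 had 1 to 4 and 0 to 4, and Col4a6 had 0 to 5 and 1 to 6, with no order between the groups detectable at this depth.

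Type VI collagen had 6 members, 4 tested and 1 lower, with a median log2 fold change of −0.63. Col6a1 and Col6a2, which join Col6a3 or a related chain in each monomer, were among the most read collagens. Col6a1 was at 161, 159, 262, 222 and 191 CPM in CTRL mice 1 to 5 and at 193, 91.8, 142, 275 and 92.4 CPM in ASO mice 1 to 5 (log2 fold change −0.32, SE 0.29, edgeR adjusted p = 0.421). Col6a2 was at 179.7, 156, 334, 210.1 and 198 CPM in CTRL mice 1 to 5 and at 202, 119, 139, 285 and 84.9 CPM in ASO mice 1 to 5 (log2 fold change −0.37, SE 0.30, edgeR adjusted p = 0.379). In both, ASO mice 2, 3 and 5 were below all controls, and ASO mouse 4 was above all of them for Col6a1 and below only CTRL mouse 3 for Col6a2.

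Col6a3, the large chain whose C-terminal fragment is endotrophin, was at 103, 114, 228, 131 and 104 CPM in CTRL mice 1 to 5 and at 85.5, 58.2, 60.1, 127 and 35.4 CPM in ASO mice 1 to 5. All treated mice but ASO mouse 4 were below all CTRL mice, and the value just missed the threshold (log2 fold change −0.89, SE 0.32, edgeR adjusted p = 0.0529). It passed in 6 of the 10 alternative fits that kept all libraries, with DESeq2 at an adjusted p of 0.0373 and limma-voom at 0.0374.

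Col6a6, a chain that can take the place of Col6a3 in the monomer and is found in skeletal muscle, was at 14.6, 22.8, 22.2, 24.8 and 16.3 CPM in CTRL mice 1 to 5 and at 17.4, 3.40, 10.6, 4.17 and 6.60 CPM in ASO mice 1 to 5. Of the treated mice 4 were below every CTRL mouse and ASO mouse 1 was inside the CTRL range. The means were 20.2 ± 4.43 CPM in the 5 CTRL mice and 8.43 ± 5.73 CPM in the 5 ASO mice (± SD), and the fall passed the threshold (log2 fold change −1.26, SE 0.39, edgeR adjusted p = 0.0277). Its counts, 29 to 49 per CTRL library and 8 to 36 per ASO library, lie to 88.6% on its end segment, which alone gave a log2 fold change of −1.07 (edgeR adjusted p = 0.0407). Leaving out CTRL mouse 2 or 4, or ASO mouse 2, 4 or 5, brought its adjusted p to between 0.0524 and 0.0663. Of the other chains of this kind Col6a5 had 2 counts in all and Col6a4 had 0.

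Within libraries, the log2 ratio of Col6a2 to Col6a1 averaged 0.09 ± 0.17 in the 5 CTRL mice and 0.07 ± 0.19 in the 5 ASO mice (± SD), and the groups differed by −0.02 (two-sided exact permutation p = 0.825). Col6a3 and Col6a1 are both counted on 1 segment of 500 bp, their most distal one. For Col6a1, on the minus strand, the gene is annotated on to chr10:76543440, past the segment's end at 76544626. The ratio of Col6a3 to Col6a1 was −0.65, −0.47, −0.20, −0.76 and −0.88 in CTRL mice 1 to 5 and −1.17, −0.65, −1.24, −1.11 and −1.38 in ASO mice 1 to 5. The groups overlapped narrowly and the difference was −0.52 (exact permutation p = 0.0238, adjusted over 5 ratios 0.0397). Leaving out CTRL mouse 2 or 3, or ASO mouse 1, 3, 4 or 5, brought that adjusted p to between 0.0661 and 0.0952.

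The ratio of Col3a1 to Col1a1 moved most. Both genes are counted on 1 segment of 500 bp with no shared base, their most distal one. For Col3a1 that segment ends at chr1:45388866, while the gene is annotated on to 45395840, so it is not the annotated gene end. The log2 ratio was −1.44, −0.87, 0.03, −0.60 and −0.88 in CTRL mice 1 to 5 and −2.20, −1.86, −2.70, −2.04 and −1.84 in ASO mice 1 to 5, so that the groups did not overlap. The difference was −1.38 (exact permutation p = 0.00794, adjusted 0.0198), and with a library left out it ranged from −1.55 to −1.18 with adjusted p of 0.0317 to 0.0476. The ratio of Col1a1 to Col1a2 averaged −0.96 ± 0.28 in the 5 CTRL mice and −0.69 ± 0.29 in the 5 ASO mice (± SD), and the groups differed by 0.27 (exact permutation p = 0.190, adjusted 0.238). That of Col5a2 to Col5a1 differed by −0.09 and was given no test, since Col5a2 averaged under 10 counts.

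**Figure D3:**
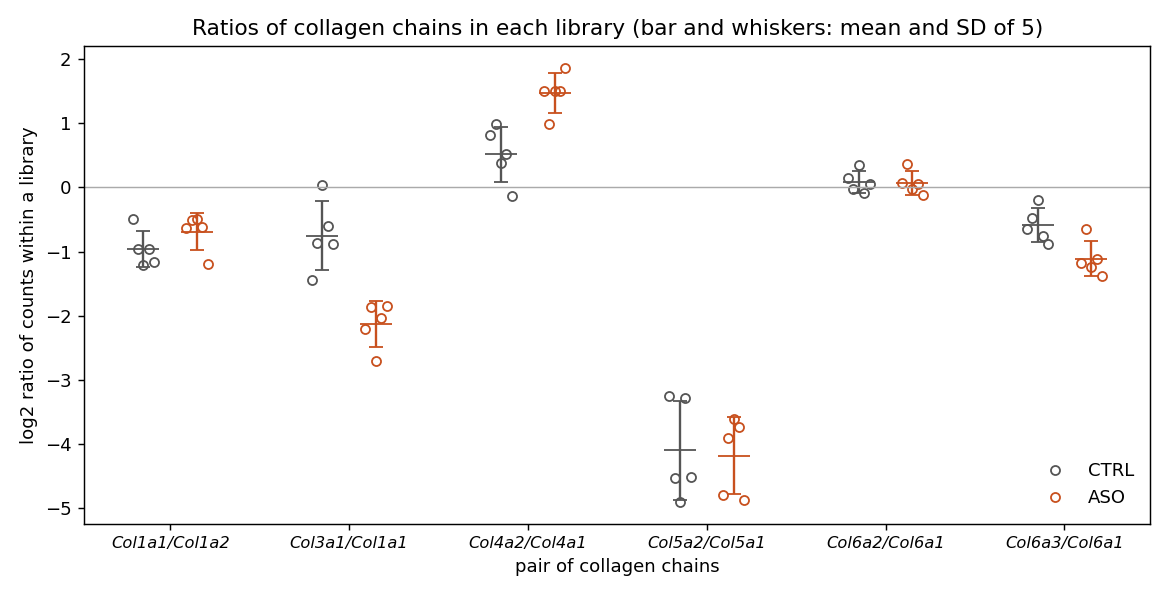
Log2 ratio of the counts of 2 collagen chains within each library, for 6 pairs, with open circles for the 5 CTRL and 5 ASO libraries and a bar with whiskers for each mean and SD. The groups do not overlap for Col3a1/Col1a1 and Col4a2/Col4a1, which differ by −1.38 and 0.96.

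Fibril-associated collagens (FACIT), which coat fibrils and bridge them to other matrix, had 9 members and 2 tested. Col14a1, abundant in interstitial fibroblasts, was at 21.2, 15.4, 81.5, 64.3 and 37.6 CPM in CTRL mice 1 to 5 and at 7.24, 20.4, 16.1, 48.0 and 10.8 CPM in ASO mice 1 to 5, with 2 treated mice below and 3 within the CTRL range (log2 fold change −1.08, SE 0.53, edgeR adjusted p = 0.140). Col16a1 was at 3.77, 6.53, 16.8, 8.26 and 11.8 CPM in CTRL mice 1 to 5 and at 5.79, 5.52, 4.23, 17.1 and 2.83 CPM in ASO mice 1 to 5 (log2 fold change −0.39, SE 0.50, edgeR adjusted p = 0.584), and here ASO mouse 4 was the highest of its group by a wide gap. Of the rest, Col20a1 had 1 to 9 counts per library, Col9a2 0 to 6, and Col12a1, Col19a1 and Col22a1 had 1, 2 and 8 counts over all 10 libraries. Col12a1 is therefore not described here, since 1 count in all allows no comparison.

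Among the remaining collagens only Col8a1, a short-chain network collagen of vessel walls, was tested. It was at 16.0, 7.46, 7.41, 8.26 and 8.99 CPM in CTRL mice 1 to 5 and at 1.93, 1.70, 4.23, 27.6 and 2.83 CPM in ASO mice 1 to 5. Each treated mouse but ASO mouse 4 was below every CTRL mouse, and ASO mouse 4 was above them all, so the value over all mice was small (log2 fold change −0.32, SE 0.68, edgeR adjusted p = 0.752). Without ASO mouse 4 it was −1.81 (edgeR adjusted p = 0.00523). The transmembrane chain Col23a1, with a seed match outside its counted segments, ranged over 7 to 10 counts in CTRL and 1 to 27 with the ASO, the 27 again in ASO mouse 4. Col28a1 had 1 to 10 counts per library and Col8a2 0 to 16, while Col10a1 and Col25a1 had 1 and 6 counts in all.

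Levels can be compared between genes only where the counted length is equal. This held for 9 tested genes counted on a single segment of 500 bp, their most distal one, with no shared base. By median CPM in CTRL their order was Col4a2 (200.0), Col6a1 (191), Col6a3 (114), Col1a2 (96.1), Col5a3 (85.9), Col1a1 (42.7), Col3a1 (23.0), Col8a1 (8.26) and Col24a1 (7.07). Of neighbours in that order, Col6a1 was above Col6a3, Col6a3 above Col1a2 and Col5a3 above Col1a1 in all 5 CTRL mice. All other neighbours changed places in at least 1 CTRL mouse. Equal length does not put segments at an equal distance from the message end. For Col3a1 and Col6a1 the segment stops short of the annotated gene end, as given above. The order is therefore one of counts on these segments and not of whole messages.

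Of the 16 tested genes, those with a seed match, Col4a2 and Col5a1, had a median log2 fold change of −0.37 and the 14 without one a median of −0.39. None of the first 2 and 2 of the other 14 were called, both lower.

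Summed over all collagen genes, the level was 1105, 1122, 2609, 1527 and 1311 CPM in CTRL mice 1 to 5 and 1269, 793, 1025, 1938 and 619.6 CPM in ASO mice 1 to 5. CTRL mouse 3 was the highest control for 13 of the 16 tested genes, ASO mouse 4 the highest treated mouse for 13, and ASO mouse 5 the lowest treated mouse for 9. Fibrillar genes made up 25.7 ± 1.79% of the collagen sum in CTRL and 28.5 ± 3.89% with the ASO, basement membrane genes 31.1 ± 4.04% and 31.9 ± 4.56%, and all others 43.2 ± 3.63% and 39.6 ± 1.80% (SD, n = 5 each). For the last of these shares 4 of 5 CTRL mice lay above every treated mouse and CTRL mouse 3 below them all. The shares were given no test. Without CTRL mouse 3 and ASO mouse 4, a choice made after seeing the data, 6 collagen genes were lower and 0 higher. They were Col3a1, Col4a1, Col6a3, Col8a1, Col14a1 and Col24a1, and Col6a6 was short of the threshold (log2 fold change −1.03, edgeR adjusted p = 0.0762). Of all 7743 genes tested in that fit, 1199 were lower and 850 higher.

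Some, but not all, marker lists of other cells were also highest in these libraries. The 11 fibro-adipogenic progenitor markers summed to 568, 689.7, 1993, 988 and 766 CPM in CTRL mice 1 to 5 and 613, 388, 435, 743 and 239 CPM in ASO mice 1 to 5, and of the 6 tested Clec3b, Smoc2, Lum and Cd34 were lower with the ASO. Of the 11 markers, Ly6a, Gsn and Dcn were listed at 0, which need not mean that they are silent. CTRL mouse 3 also held the highest summed adipocyte markers (13744 CPM, against 846 to 2383 in the other controls) and macrophage markers (1848 CPM, against 296 to 691). Its sums for tendon markers (79.1 CPM) and for pericyte and smooth muscle markers (590 CPM) were the lowest of the controls. ASO mouse 4 was the highest treated mouse for 8 of the 10 marker lists and the lowest for skeletal muscle fiber markers. Its sums were 622 CPM for Schwann cell markers (46.4 to 134 in the other treated mice), 573 CPM for tendon markers (65.4 to 324), 1567 CPM for pericyte and smooth muscle markers (478 to 1125) and 713 CPM for endothelial markers (301 to 641). Between the groups, Actn3, Ttn and Ckm of 5 tested skeletal muscle fiber markers were higher with the ASO (median log2 fold change 0.93), and the sums of that list, given above, did not overlap. Mrc1 and C1qc of 7 tested macrophage markers were lower, Acta2 of 6 pericyte and smooth muscle markers and Cdh15 of 4 satellite cell markers were higher, and none of 6 adipocyte, 7 endothelial, 5 Schwann cell, 4 blood and 3 tendon markers passed the threshold. Of all tested genes 17.4% were lower and 11.8% higher. The summed endothelial markers were 290 to 485 CPM in CTRL and 301 to 713 CPM with the ASO, beside the lower Col4a1. In whole muscle, fewer cells of a type and less RNA per cell cannot be told apart, and the part of these markers in the collagen values was not tested.

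**Figure D4:**
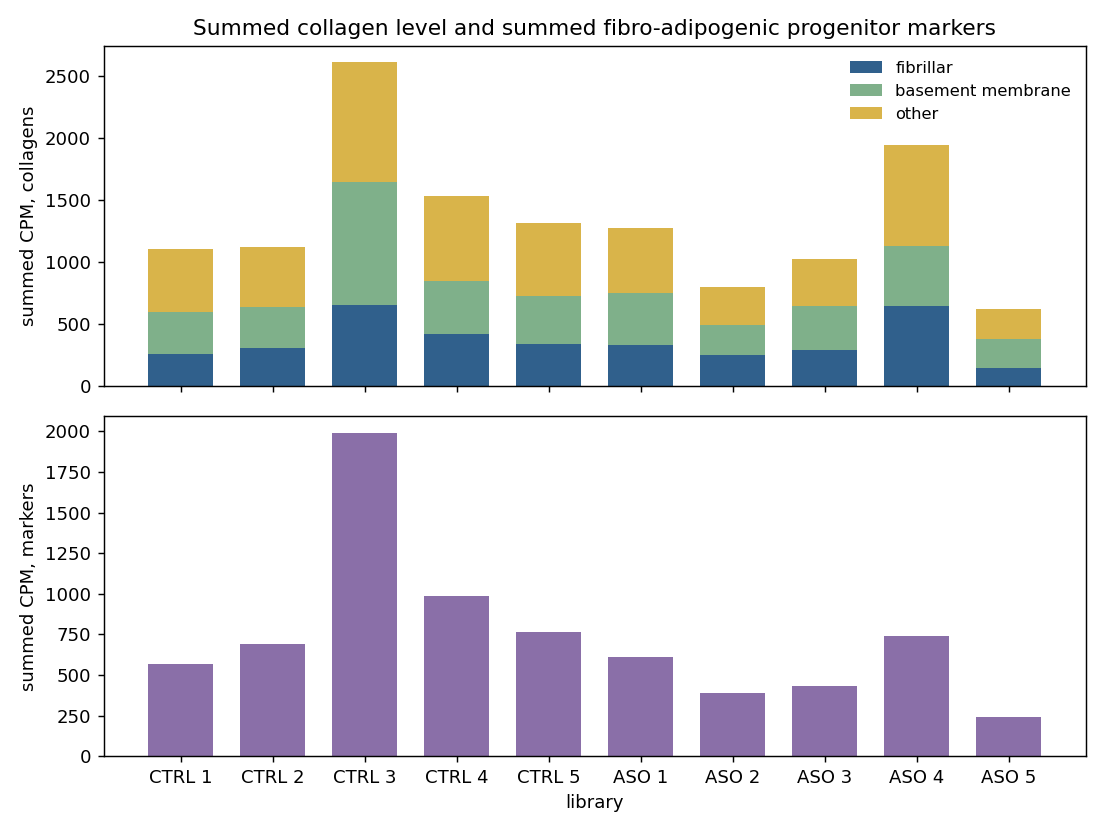
Summed normalized CPM per library of all collagen genes, stacked by class (upper), and of the fibro-adipogenic progenitor markers (lower), for CTRL mice 1 to 5 and ASO mice 1 to 5. CTRL mouse 3 and ASO mouse 4 hold the highest collagen sums of their groups, 2609 and 1938 CPM.

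The genes that make, trim, break down or bind collagen were read from 7 lists with 125 distinct genes in the table, 79 of them tested. Of these 15 (19.0%) were lower and 4 (5.06%) higher, beside the 17.4% and 11.8% of all tested genes given above, with a median log2 fold change of −0.29. The counts of 7 of the 19 called genes lie mostly at least 1000 bp upstream of the message end. These 7 (Mia2, P4ha2, Mmp14, Fn1, Lamc1, Smad2 and Tgfbr2) were all lower, while the 4 higher genes have their main segment at that end. The shift of counts toward message ends in the ASO libraries runs in the same direction, and its part was not tested. Of the 13 called genes that have a value on their most distal segment with bases of its own, 9 were called there in the same direction. Where all counts of a gene lie on that segment, the fit reuses them under another scaling, so its call there is no separate check. Col1a1, counted on 1 segment, went from 0.36 to 0.098 in this way. The Lamc1 value there rests on counts at least 1000 bp upstream of the message end.

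**Figure D5:**
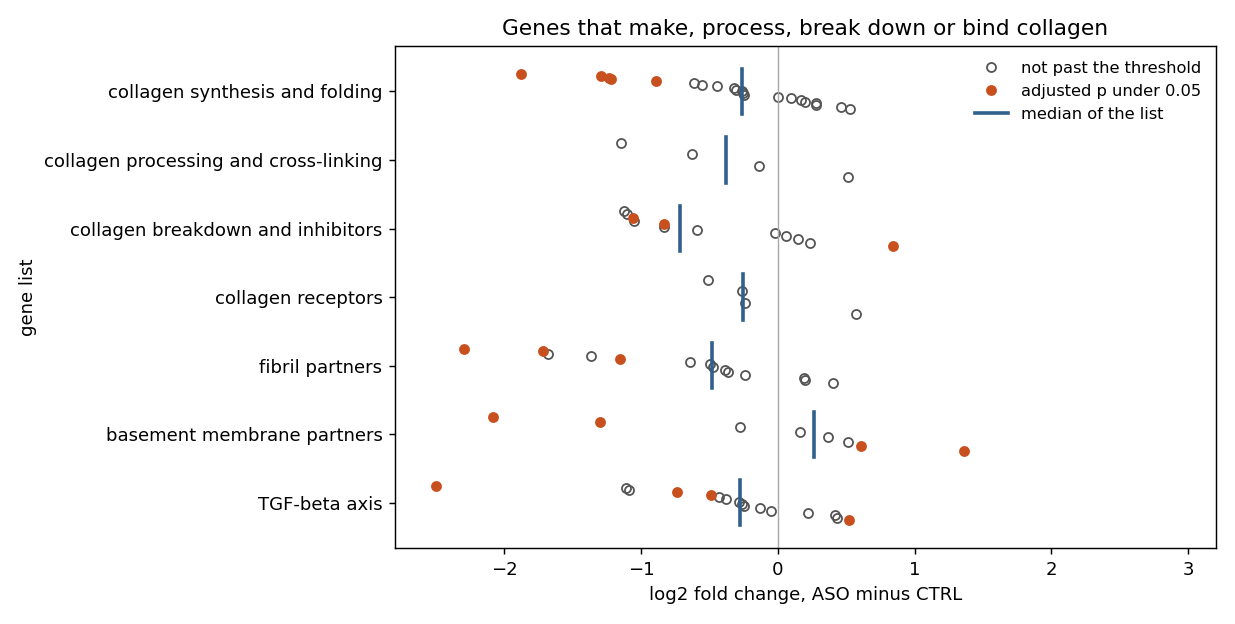
Log2 fold change, ASO minus CTRL, of the 79 tested genes of 7 lists, 1 row per list, with filled points past the threshold, open points not past it and a bar at each list's median. The 15 called genes to the left of 0 are spread over 5 lists, and the processing and receptor lists hold none.

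Of the synthesis and folding genes 21 of 27 were tested, 5 were lower and 0 higher (median −0.26). The lower ones were Mia2, a cargo receptor that loads procollagen at endoplasmic reticulum exit sites (log2 fold change −1.23, SE 0.15, edgeR adjusted p = 2.2e-04), Fkbp14, a prolyl isomerase for collagen (log2 fold change −1.88, SE 0.33, edgeR adjusted p = 0.00158), P4ha2, a prolyl 4-hydroxylase subunit (log2 fold change −1.22, SE 0.22, edgeR adjusted p = 0.00170), Tmem38b, an endoplasmic reticulum cation channel (log2 fold change −0.89, SE 0.24, edgeR adjusted p = 0.0150), and Sec24d, a coat protein of the vesicles that carry procollagen (log2 fold change −1.30, SE 0.40, edgeR adjusted p = 0.0292). Mia2 and P4ha2 were counted 7286 and 11416 bp upstream of the message end. The main segment of Fkbp14 lies 958 bp upstream, and this gene has no value on its most distal segment. P4ha2 was at 81.8 ± 21.3 CPM in the 5 CTRL mice and 35.0 ± 8.22 CPM in the 5 ASO mice (± SD), with no overlap between the groups. Its partner subunit P4hb was at 717 ± 60.3 CPM in the 5 CTRL mice and 764 ± 54.9 CPM in the 5 ASO mice (± SD) and was not past the threshold, nor were Sec23a and Mia3, at log2 fold changes of −0.32 and 0.28. The collagen chaperone Serpinh1 was below the filter, and Sparc was listed at 0.

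Of the processing and cross-linking genes 4 of 15 were tested and none passed. The most read were the transglutaminase Tgm2 (log2 fold change 0.51, SE 0.22, edgeR adjusted p = 0.0972) and the lysyl oxidase relatives Loxl2 and Loxl1, at log2 fold changes of −0.63 and −0.14. Lox itself was listed at 0.

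Breakdown enzymes and their inhibitors had 12 tested of 21, 2 lower and 1 higher, with a median of −0.71. Mmp14, the membrane collagenase, was lower (log2 fold change −1.06, SE 0.35, edgeR adjusted p = 0.0381, counted 4099 bp upstream), as was Timp2, an inhibitor that also docks pro-MMP2 on it (log2 fold change −0.84, SE 0.26, edgeR adjusted p = 0.0285), while Mmp15 was higher (log2 fold change 0.84, SE 0.19, edgeR adjusted p = 0.00682). The inhibitor Timp3 and the protease Adamts1 were among the most read members not past the threshold, at log2 fold changes of 0.24 and −0.02, as was the collagen uptake receptor Mrc2 at 0.06. Of the gelatinases, Mmp2 had 1 count in all, and Mmp9, also below the filter, had 3 to 35 counts per CTRL library, the 35 in CTRL mouse 3, and 0 to 3 per ASO library, with 0 in 4 of the 5. With no filter Mmp9 was lower (edgeR adjusted p = 0.00501).

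Of the receptors 4 of 10 were tested and none passed, among them the integrin chains Itgb1 (log2 fold change −0.24, SE 0.15, edgeR adjusted p = 0.239) and Itga1 (log2 fold change 0.57, SE 0.21, edgeR adjusted p = 0.0642) and the receptor kinase Ddr1, at a log2 fold change of −0.51. Ddr2, the fibroblast receptor for fibrillar collagen, was below the filter, with 5 to 18 counts per CTRL library and 2 to 4 per ASO library. Every treated mouse was below every CTRL mouse, and with no filter its log2 fold change was −1.71 (edgeR adjusted p = 0.0312).

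Fibril partners had 14 tested of 22, 3 lower and 0 higher, with a median of −0.48. Lum, lumican, a proteoglycan that binds and spaces fibrils, was at 160.4 ± 30.8 CPM in the 5 CTRL mice and 48.6 ± 22.8 CPM in the 5 ASO mice (± SD), with every treated mouse below every CTRL mouse (log2 fold change −1.72, SE 0.29, edgeR adjusted p = 0.00135). Ogn, a relative of it, fell from 101 ± 30.8 to 45.3 ± 26.8 CPM (log2 fold change −1.16, SE 0.33, edgeR adjusted p = 0.0186), and Fn1, fibronectin, on which fibrils assemble, from 129 ± 101 to 26.0 ± 25.1 CPM (SD, n = 5 each), counted 4577 bp upstream (log2 fold change −2.29, SE 0.63, edgeR adjusted p = 0.0159). Bgn, Thbs4 and Prelp, the most read of the others, had log2 fold changes of 0.19, 0.40 and −1.37 and did not pass. Fbn1, the microfibril protein fibrillin, was below the filter with 9 to 21 counts per CTRL library and 0 to 10 per ASO library, and with no filter its log2 fold change was −2.18 (edgeR adjusted p = 0.0275). Lum is also in the progenitor marker list.

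Basement membrane partners split in direction, 2 lower and 2 higher of 8 tested (median 0.26). Nid1, which ties laminin to type IV collagen, and Lamc1, the common laminin gamma chain, were lower (log2 fold change −1.30, SE 0.36, edgeR adjusted p = 0.0180 and log2 fold change −2.08, SE 0.30, edgeR adjusted p = 5.3e-04), Lamc1 at 45.9 ± 19.4 CPM in the 5 CTRL mice and 10.8 ± 2.25 CPM in the 5 ASO mice (± SD) with no overlap but counted 9893 bp upstream. Lama5 and Lamb2, other laminin chains, were higher (log2 fold change 1.36, SE 0.26, edgeR adjusted p = 0.00263 and log2 fold change 0.60, SE 0.19, edgeR adjusted p = 0.0273). In the fit on most distal segments Lamb2 was short of the threshold, at 0.35 (edgeR adjusted p = 0.166). That fit scales libraries differently, and 0% of the Lamb2 counts lie 1000 bp or more upstream. The change for Lamb2 therefore cannot be read as one between end segment and whole gene. Dag1, Lama4 and Lama2 were not past the threshold, at 0.16, 0.52 and −0.27.

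Of the TGF-beta axis, which drives collagen transcription in fibroblasts, 16 of 19 genes were tested, with 3 lower and 1 higher (median −0.27). The receptor Tgfbr2 was at 65.6 ± 20.4 CPM in the 5 CTRL mice and 11.5 ± 3.42 CPM in the 5 ASO mice (± SD), with no overlap (log2 fold change −2.50, SE 0.26, edgeR adjusted p = 1.2e-04), although its counts lie 4636 bp upstream of the message end and it has no value at that end. Smad2 and Smad4, which carry the signal to the nucleus, were lower (log2 fold change −0.74, SE 0.20, edgeR adjusted p = 0.0160 and log2 fold change −0.49, SE 0.13, edgeR adjusted p = 0.0152), and the ligand Tgfb3 was higher (log2 fold change 0.52, SE 0.17, edgeR adjusted p = 0.0338). Of the Smad2 counts 78.1% lie at least 1000 bp upstream of the message end. In the fit on most distal segments Smad2, Smad4 and Tgfb3 were short of the threshold. The log2 fold change was −1.36 for Smad2, more negative than over the whole gene (edgeR adjusted p = 0.060), −0.30 for Smad4 (0.155) and 0.27 for Tgfb3 (0.321). That fit also scales libraries differently, and 0% of the Tgfb3 counts lie 1000 bp or more upstream. The change for Tgfb3 therefore cannot be read as one between end segment and whole gene. Ltbp3, Smad3 and Ccn1, the most read others, had log2 fold changes of 0.42, 0.43 and −0.43 and did not pass, and Ccn2, a classic target of the pathway, was below the filter.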

How the data were processed

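Poly(A) RNA of 10 gastrocnemius muscles was sequenced as paired 60-base reads after a stranded kit. Per the labels, the submitters' processing notes name fastp, STAR, featureCounts of Subread, DESeq2 and the build GRCm39. The authors' methods name the Gencode M25 annotation and restrict counting to the last 500 bp of each 3′UTR, with no strand option given. They deposited unnormalized counts per segment. Of 52423 segments 52361 were matched to GENCODE M39 and summed per gene, and the 62 others, with 0.0197% of the counts, were left out, as were 4 sample columns that match no sample here. Members, lists and tests were chosen with earlier results of these data known. Named were all collagen genes, and of other lists up to 8 members past the threshold by smallest p and up to 3 others by mean count. Serpinh1, Sparc, Lox, Mmp2, Mmp9, Ddr2, Fbn1, Ccn2 and the low collagen Col4a4 were named after their values were seen. The main test was edgeR 4.0.16 in R 4.3.3 (TMM, filterByExpr, quasi-likelihood test, Benjamini-Hochberg adjustment over 7813 genes, threshold 0.05). SE is the log2 fold change divided by the root of F. Ratios of chains, with 0.5 added to each count, were compared by two-sided exact permutation, adjusted over the 5 tested of 6. The design did not foresee that 1 ratio would go untested. Other scalings and filters, DESeq2 1.42.0, limma-voom 3.58.1, a replicate block, the most distal segment, equal depth and leaving out libraries were tried. On simulated counts for 7707 genes, edgeR recovered 45.8% of genes changed by a log2 value of 1 and 91.8% of those changed by 2. Nothing in the labels says more than that the 10 samples are separate, so p-values measure the spread between these samples. No 2 libraries of a group agreed within sampling noise. With 1606909 to 2632560 counts per library, 3 counts are worth 1.14 to 1.87 CPM.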

Additional observations from a re-analysis of the deposited data

Results flagged for a closer look

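Of 52 groups of 5 values examined (the 16 tested collagen genes, 4 sums and 6 chain ratios, in CTRL and in ASO mice), 11 had a highest or lowest mouse that stood apart by Dixon's test at its 95% critical value. For normally distributed values chance alone flags about 1 in 20. Genes and sums were examined as CPM without a log, so that rate may not hold for them. The values are not independent, since the same mice recur.

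CTRL mouse 3 was the high one for Col4a1 (399.7 CPM, others 97.0 to 180.3), Col4a2 (518 CPM, others 165 to 230.1), Col5a3 (174 CPM, others 68.1 to 89.1) and Col6a3 (228 CPM, others 103 to 131). It also stood apart in the sum over all collagen genes (2609 CPM, others 1105 to 1527) and over the basement membrane genes (995 CPM, others 326 to 432). ASO mouse 4 was the high one for Col1a2 (213 CPM, others 32.5 to 79.5), Col16a1 (17.1 CPM, others 2.83 to 5.79) and Col8a1 (27.6 CPM, others 1.70 to 4.23). CTRL mouse 1 was high for Col8a1 (16.0 CPM, others 7.41 to 8.99), and ASO mouse 5 was low for the log2 ratio of Col1a1 to Col1a2 (−1.19, others −0.63 to −0.50).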

How the results depend on the processing

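Direction and side of the threshold held under each alternative for Col5a1, Col5a3, Col6a1, Col6a2 and Col16a1, none of them called. Scaling by total counts moved the median over all genes to −0.21, and gave 528 genes higher and 2 pathway genes higher in place of 920 and 4. Relative to that shift the collagen median of −0.57 was −0.36. Counting each gene on its most distal segment alone, where fewer genes are tested and the scaling also differs, gave 318 genes higher and 503 lower in place of 920 and 1363. Of the pathway genes 2 were higher and 9 lower there in place of 4 and 15. With no filter on low counts 1 collagen gene was higher (Col11a2), and with DESeq2 1 was higher and 4 lower (Col4a1, Col6a6, Col6a3 and Col4a4). Of 14134 genes, those fits called 829 and 1111 higher and 1349 and 1478 lower. Upper quartile scaling turned Col1a2 to 0.050.

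With 1 library left out, the collagen genes lower numbered 0 to 6, with 0 without ASO mouse 2 or ASO mouse 5 and 6 without ASO mouse 4, and those higher 0 to 1. Over all genes those lower numbered 1127 to 1369 and those higher 692 to 1021. Pathway genes lower numbered 11 to 27, the most without ASO mouse 4, and those higher 2 to 6, the fewest without CTRL mouse 5. Ranges that crossed 0 were −0.55 to 0.030 for Col18a1, −0.33 to 0.23 for Col4a2, −0.15 to 0.62 for Col1a1, −0.55 to 0.19 for Col1a2 and −0.098 to 0.043 for the ratio of Col6a2 to Col6a1. The ratio of Col1a1 to Col1a2 ranged from 0.21 to 0.40, past the threshold without CTRL mouse 1, and that of Col6a3 to Col6a1 from −0.63 to −0.42. Without CTRL mouse 3 and ASO mouse 4, chosen after seeing the data, 6 collagen and 23 pathway genes were lower, beside 1199 of all 7743 genes tested. Col4a2 and Col1a1 turned, to 0.094 and −0.030. The cause of these changes was not tested.

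Replicate numbers do not pair the mice, since the correlations of same-numbered deviations ran from −0.43 to 0.16. With the replicate number as a block, 3 collagen genes were lower (Col4a1, Col6a6 and Col6a3) and 0 higher, beside 1172 lower and 662 higher of all 7813 genes. Sign flips within replicate pairs left the ratios Col3a1 to Col1a1, Col4a2 to Col4a1 and Col6a3 to Col6a1 at −1.38, 0.96 and −0.52 with exact p = 0.0625, the smallest that 5 pairs allow, so this block cannot reach the threshold. Depth limits the 20 collagen genes below the filter, where differences were not detectable in most.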
